A study of Mus musculus with 168 samples.

Results

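Motor neurons of the lumbar spinal cord were compared between mice with spinal muscular atrophy (SMA) and littermate controls at postnatal day 2. The 12 libraries labelled as lumbar neurons of that age were taken, of 168 in the series, and libraries of the same animal were averaged. This gave 11 mice, 4 controls and 7 with SMA, of 160 samples of mouse and cell population in all. SMA mice were of the delta7 line: they lack mouse Smn (Smn-/-) and carry the human transgenes SMN2+/+ and SMNΔ7+/+. Controls were Smn+/+ on the same transgenes, so the human copies were present in every animal. The series' design text names day 2 as a stage before symptoms. Stained sections of frozen cord were cut by laser, about 150 cells were pooled in each tube, and polyA RNA was sequenced after Smart-seq2, which copies transcripts over their whole length. Each mouse therefore gave a pool of cells, in which fewer cells of a type and less RNA per cell cannot be told apart. Levels are RPKM, the reads of a gene scaled to its length and to library depth. Fold changes are SMA over control on the log2(RPKM + 1) scale, from limma, and a gene was called at an adjusted p under 0.05 (Benjamini and Hochberg, two-sided). Values are mean ± SD over mice, n = 4 controls and n = 7 SMA mice; where a pair of values is given, controls come first.

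In SMA, motor neurons degenerate for want of SMN, the survival motor neuron protein. SMN works with the Gemin proteins in a complex that loads Sm proteins onto the small nuclear RNAs of the spliceosome, which removes introns from messenger RNA. Human SMN2 makes mostly a transcript that lacks an exon near its end, and little full-length protein. Lumbar motor neurons, which drive the muscles of the hind limb, are among the cells lost in the disease. The transcription factor p53, which induces cell cycle arrest and cell death genes after DNA damage and other stress, is known to act in motor neurons of SMA mice.

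Library depth was 3.80 to 7.56 M reads, and the libraries listed 14687 to 17784 genes above 0. The library of SMA mouse 211 stood apart. Its correlations with the other mice were 0.885 to 0.903, against 0.9145 to 0.950 among those mice, and it had the fewest genes above 0. Its score on the first principal component was 105.5, where the others lay between -22.3 and 0.251. Controls 240 and 244 held RNA of hypothalamic peptides. Hcrt, the orexin precursor, was 1.16, 1.32, 99.99 and 139 RPKM in controls 20, 28, 240 and 244, and 2.398 to 13.5 in SMA mice. Counts and values without these mice are given beside several of the results. Sex was not in the model, and sex-linked genes varied: Xist was at 0 in 2 mice and Ddx3y in 4. The 5 sex-linked genes tested had a median log2 fold change of -0.11. Without controls 240 and 244 it was 1.85, with 4 above 0 and 1 below. In both cases 0 had an unadjusted p under 0.05 in limma. The tissue label was met by the markers. Chat, the enzyme that makes acetylcholine, was 18.4 ± 3.77 RPKM in controls and 17.9 ± 4.84 in SMA mice. Hoxc10, a Hox gene of lumbar segments, was 90.7 ± 16.1 and 99.3 ± 18.4. Prph, a filament protein of motor neurons, was 1221 ± 216.5 and 1284 ± 211.3.

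**Figure D1:**
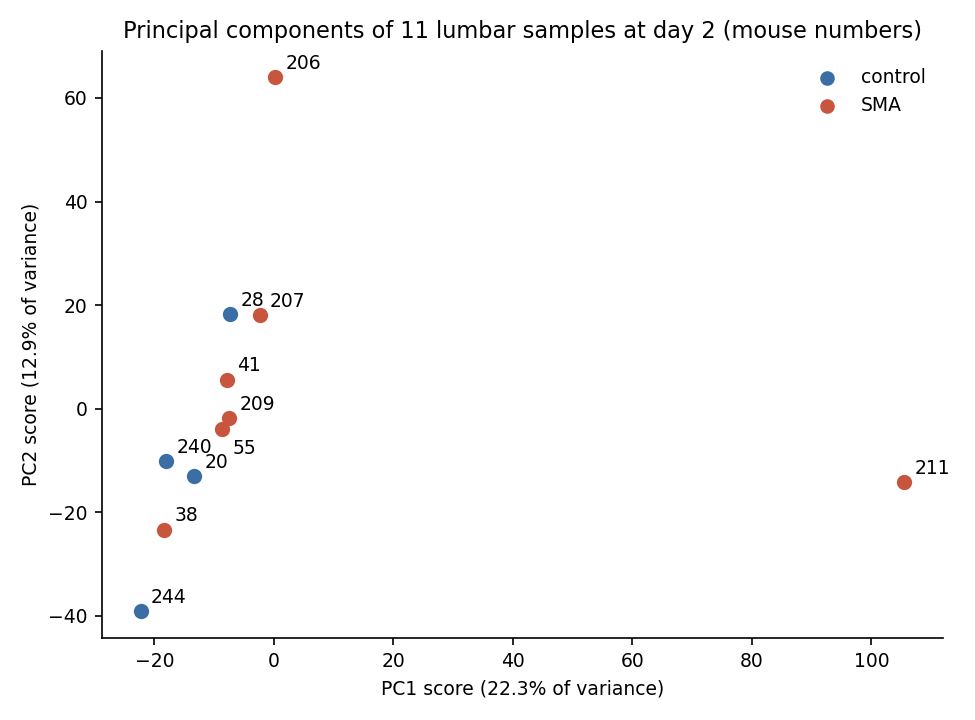
Scores of the 11 lumbar samples on the first (x axis) and second (y axis) principal component of log2(RPKM + 1), in score units, with the mouse number beside each point and the genotype in colour. SMA mouse 211 lies alone at 105.5 on the first component, which carries 22.3% of the variance.

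Across all genes, 2 of 16382 tested were called, which is 0.0122%. Smn1 was lower in SMA mice (0.0061%) and Snrpa1 was higher (0.0061%). At an unadjusted p under 0.05, 451 genes were higher (2.75%) and 485 lower (2.96%), 936 in all (5.71%). Over all genes tested the median of the log2 fold change was -0.01, and 48.7% of them were above 0. The mouse values of the genotypes did not overlap for 58 genes that were higher in SMA mice (0.354%) and 72 that were lower (0.44%), 130 in all (0.794%). Without SMA mouse 211, 755 of 16308 genes had an unadjusted p under 0.05 (4.63%). It was 499 of 16204 (3.08%) without controls 240 and 244. Smn1 and Snrpa1 were called in both cases.

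**Figure D2:**
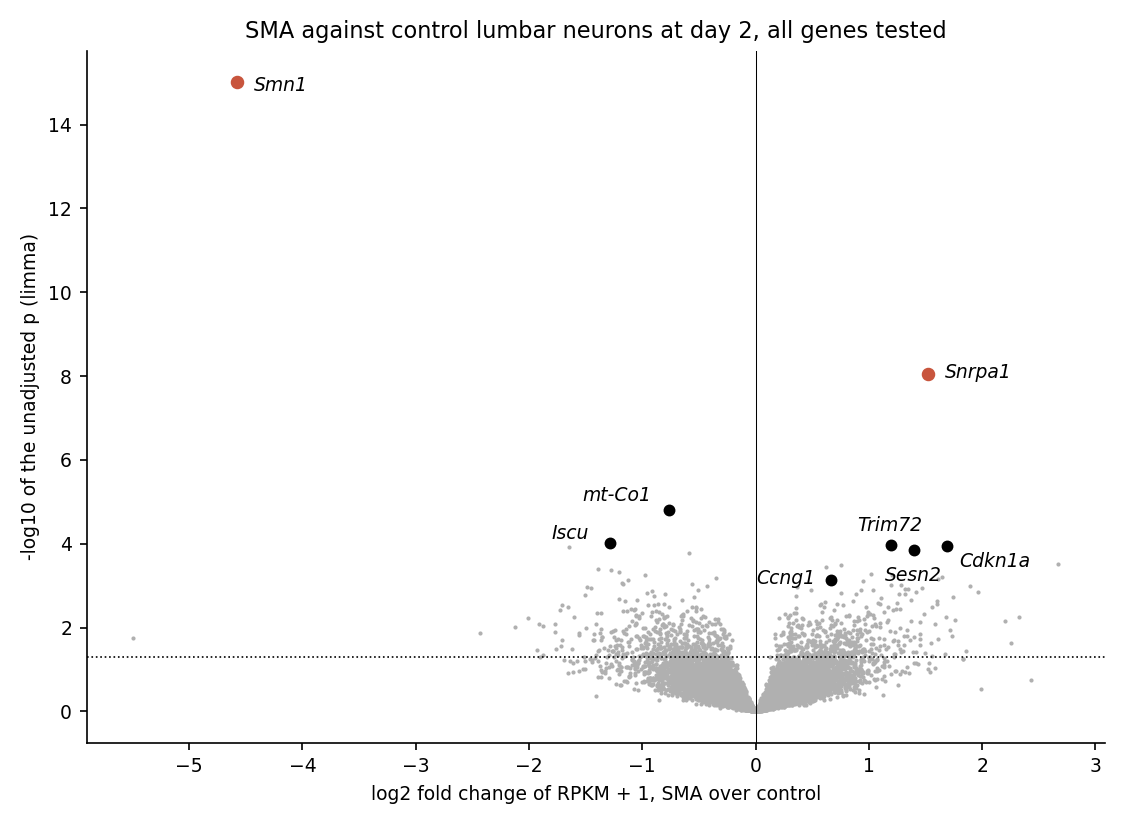
Each point is a gene tested, with its log2 fold change of SMA over control on the x axis and -log10 of limma's unadjusted p on the y axis. Smn1 and Snrpa1 are the 2 genes called, of 16382.

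Smn1, the gene knocked out in this model, lies on chr13:100124852-100137690 (plus strand, GRCm38). It was 24.6, 20.4, 16.9 and 31.8 RPKM in controls 20, 28, 240 and 244, and was listed at 0 in all 7 SMA mice. The groups did not overlap, and each mouse fitted its genotype label. The control mean was 23.4 ± 6.40. A floor of 3 reads per library over 2592 exon bases puts SMA mice at no more than 0.304 RPKM, so the level was at least 77.0-fold lower (limma, adjusted p = 1.59e-11). The row of human SMN2 was 120.8, 126.7, 173.1 and 148 in controls and 84.4 at the lowest, 169.2 at the median and 191.98 at the highest in SMA mice. The genotypes overlapped, and the log2 fold change was 0.07 (SE 0.25, limma, adjusted p = 0.998). How reads that fit more than 1 of the mouse gene and the human transgenes were counted is not given in the sources used here.

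Snrpa1 codes for the A-prime protein of the U2 small nuclear ribonucleoprotein (snRNP), which recognises the branch point of introns. The gene lies on chr7:66059003-66074587 (plus strand, GRCm38). Controls held 44.6, 30.3, 41.8 and 35.1 RPKM. SMA mice held 85.9 at the lowest, 116.4 at the median and 126.2 at the highest, so every SMA mouse lay above every control. The means were 37.9 ± 6.48 and 110.9 ± 15.6, a ratio of 2.92, and the log2 fold change was 1.53 (SE 0.19, limma, adjusted p = 7.28e-05). Without mouse 211 it was 1.58 (adjusted p = 6.08e-05), and without controls 240 and 244 it was 1.56 (adjusted p = 0.0112). The column names also number the libraries, and what these numbers stand for is not stated. The mice with the lower library numbers gave 1.61, with an adjusted p of 0.0505 in limma.

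Of the genes beside Snrpa1, 0 of 9 others tested within 1 Mb had an unadjusted p under 0.05 in limma, and their log2 fold changes ran from -0.54 to 0.52. Around Smn1 it was 0 of 17, from -0.65 to 0.38. Of all genes, 5.71% had such a p. The 250 bases before the Snrpa1 start in RefSeq (GRCm38.p6, chr7:66060086-66060335, plus strand, 5′ to 3′) are shown because this is the gene that rose. The window lies inside the gene span given above, which is from GENCODE, so the annotations differ on the start. The capitals mark a match to GGGCGG, a motif bound by Sp1 and related factors, read on the other strand. Of 32851 such windows, 32.7% hold GGGCGG on either strand, and of the 10321 tested genes with a window, 62.7% do.
Snrpa1: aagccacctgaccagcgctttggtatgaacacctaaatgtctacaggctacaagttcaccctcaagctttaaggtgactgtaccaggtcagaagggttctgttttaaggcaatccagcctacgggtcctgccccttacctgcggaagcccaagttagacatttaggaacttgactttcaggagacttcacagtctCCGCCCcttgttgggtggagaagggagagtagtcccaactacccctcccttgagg
These letters hold no match to CCAAT and none to a p53 half-site on either strand.

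All 11 members of the U2 snRNP tested had a log2 fold change above 0, with a median of 0.19 against -0.01 for all genes, and Snrpa1 was the member called. Sf3b4, a subunit of the SF3B complex that holds U2 at the branch point, was 5.30, 6.17, 3.54 and 5.64 RPKM in controls. In SMA mice it was 5.66 at the lowest, 7.99 at the median and 12.2 at the highest, and SMA mouse 38 fell inside the control range. Its log2 fold change was 0.66 (SE 0.22, limma, adjusted p = 0.654). Over 26 other settings of the fit it ran from 0.11 to 0.74, with an unadjusted p of up to 0.70 in limma. Sf3a2 and Sf3b2, other U2 subunits, were named after their values were seen. Sf3a2 was 6.29 ± 0.995 RPKM in controls and 10.8 ± 4.50 in SMA mice, and Sf3b2 was 39.4 ± 4.84 RPKM in controls and 48.6 ± 4.47 in SMA mice. Snrpb2, the partner of the A-prime protein on the U2 RNA, was 67.4 RPKM in controls and 74.3 in SMA mice (log2 fold change 0.13). With controls 240 and 244 left out, 10 of the 11 members were above 0.

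Of the 9 members of the SMN complex, 7 had a log2 fold change below 0, the median was -0.30 (-0.08 without SMA mouse 211), and Smn1 was the member called. Smn1 is the gene knocked out in this model, so its place among these 7 and its call were fixed by the genotype. Ddx20 (Gemin3), the helicase of the complex, was 3.34, 3.01, 2.46 and 3.66 RPKM in controls and 3.58 at the lowest, 6.16 at the median and 10.8 at the highest in SMA mice. SMA mouse 41 fell inside the control range, and the log2 fold change was 0.82 (limma, adjusted p = 0.654). Gemin2, which holds the ring of Sm proteins, was 5.95 ± 1.39 and 5.97 ± 3.996. Gemin5, which binds the small nuclear RNA, was 4.81 ± 0.734 and 4.03 ± 1.74, and Gemin4 was 20.9 ± 15.6 and 13.1 ± 9.75, with a wide spread in both genotypes. Gemin6, Gemin7 and Gemin8 form a smaller unit of the complex. Gemin6 was 3.45 ± 0.584 and 2.97 ± 2.08, Gemin7 was 131 ± 21.8 and 100.6 ± 18.1 and Gemin8 was 0.621 ± 0.531 and 0.785 ± 0.540. Strap, which joins them, was 75.4 ± 5.39 and 72.9 ± 8.22. Gemin7 had the lowest unadjusted p among Gemin2, Gemin4 to Gemin8 and Strap (limma, adjusted p = 0.912). The 13 Sm, U1 and U7 proteins tested had 0 members at an unadjusted p under 0.05, where 5.71% of all genes were, and a median of -0.07. The 9 proteins of the minor spliceosome, which removes a rare class of introns, also had 0, and a median of -0.09.

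**Figure D3:**
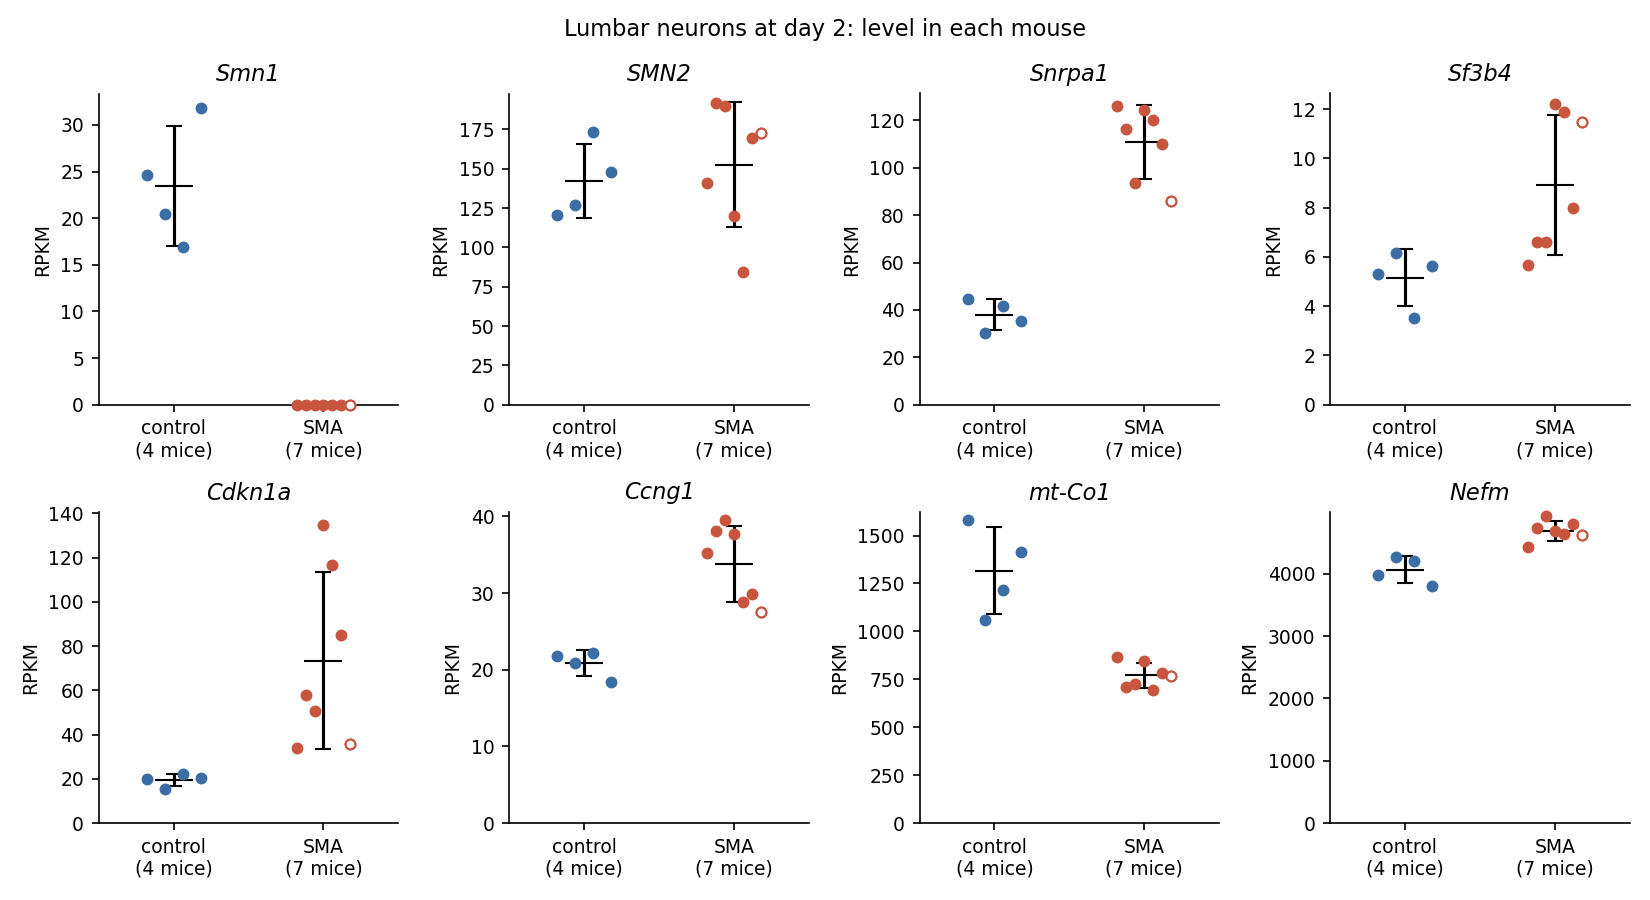
RPKM (y axis, from 0) of 8 genes in each mouse, by genotype, with the mean and SD. Smn1 is at 0 in all 7 SMA mice, and every SMA mouse lies above every control for Snrpa1.

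Of 34 targets of p53 tested, 27 had a log2 fold change above 0 and the median was 0.37, against -0.01 for all genes. At an unadjusted p under 0.05, 8 were higher and 0 lower, where 2.75% and 2.96% of all genes were, and 0 were called. Without SMA mouse 211, 10 were higher, where 2.53% of all genes were. When controls 240 and 244 were left out, 5 were higher, where 1.39% were. Cdkn1a, the inhibitor p21 that stops the cell cycle, was 20.1, 15.6, 22.4 and 20.2 RPKM in controls. It was 33.9 at the lowest, 57.7 at the median and 135 at the highest in SMA mice, so the groups did not overlap. SMA mice 206 and 207 were the highest and mice 38 and 211 the lowest. The log2 fold change was 1.69 (SE 0.38, limma, adjusted p = 0.281).

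Ccng1, cyclin G1, was 21.9, 20.9, 22.2 and 18.4 RPKM in controls and 27.5 at the lowest, 35.3 at the median and 39.5 at the highest in SMA mice. The groups did not overlap, and the log2 fold change was 0.66 (SE 0.18, limma, adjusted p = 0.521). Sesn2, sestrin 2, a stress protein that restrains growth signalling, was 0.114 to 0.735 in controls and 0.987 to 5.36 in SMA mice, again without overlap (log2 fold change 1.40, limma, adjusted p = 0.286). The other 5 targets at an unadjusted p under 0.05 were named after their values were seen, and all overlapped. Dcxr was 8.46 ± 2.79 and 32.2 ± 31.5 and Ephx1 was 5.87 ± 2.92 and 15.9 ± 7.39, both enzymes of small-molecule metabolism. Without controls 240 and 244 the log2 fold change of Ephx1 went from 1.14 to 0.67. Btg2, which restrains cell division, was 2.65 ± 2.17 and 5.40 ± 1.88. Psrc1 was 0.182 ± 0.364 and 1.82 ± 1.65, and Pmaip1, the cell death gene Noxa, was 0.194 ± 0.195 and 1.37 ± 1.499. Mdm2, which marks p53 for destruction and is itself a target, was 12.9 ± 3.32 and 14.5 ± 2.92 (log2 fold change 0.17, limma, adjusted p = 0.984). Bax, a cell death gene among the targets, was 71.8 and 66.1. Of 12 other cell death genes, 0 had an unadjusted p under 0.05, where 5.71% of all genes did, and 6 were above 0.

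Trp53, the gene of p53, was 7.10, 3.87, 7.32 and 5.23 RPKM in controls and 5.40 at the lowest, 12.9 at the median and 17.5 at the highest in SMA mice. SMA mouse 209 fell inside the control range and the other SMA mice lay above it. The log2 fold change was 0.93 (SE 0.26, limma, adjusted p = 0.521). In a list of 9 genes, Trp53 with its regulators, 1 was higher and 1 lower at an unadjusted p under 0.05. Of all genes, 2.75% and 2.96% were. Trp53 was the higher. Mapk14, the kinase p38 alpha, was the lower, at 14.2 ± 4.28 and 9.65 ± 2.69 (limma, adjusted p = 0.740). Without controls 240 and 244 its log2 fold change went from -0.50 to -0.29. In that setting 0 members of the list were lower, where 1.69% of all genes were.

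The 250 bases before the upstream Cdkn1a start in RefSeq (chr17:29090729-29090978, plus strand, GRCm38.p6) are shown because they hold letters that p53 is known to bind, and the run before Ccng1 (chr11:40755312-40755536, minus strand) for comparison. A p53 half-site is a run of 10 bases around a fixed core. A p53 element was taken as 2 half-sites side by side with both cores matched and at most 1 other mismatch, a rule set after this sequence was seen. In Cdkn1a the capitals mark a half-site and, closer to the start, an element. In Ccng1 they mark a half-site and 3 matches to CCAAT, the last read on the other strand.
Cdkn1a: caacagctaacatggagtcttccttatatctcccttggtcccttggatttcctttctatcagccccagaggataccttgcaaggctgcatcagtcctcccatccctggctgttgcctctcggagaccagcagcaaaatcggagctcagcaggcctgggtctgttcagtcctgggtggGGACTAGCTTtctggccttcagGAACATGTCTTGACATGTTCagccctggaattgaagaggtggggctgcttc
Ccng1: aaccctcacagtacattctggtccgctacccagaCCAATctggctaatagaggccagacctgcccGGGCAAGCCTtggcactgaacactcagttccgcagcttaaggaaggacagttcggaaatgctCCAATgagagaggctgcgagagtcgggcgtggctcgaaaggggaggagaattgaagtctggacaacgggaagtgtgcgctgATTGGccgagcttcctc
Of all 32851 windows, 0.046% held an element, 7.13% a half-site and 33.9% CCAAT on either strand. Among tested genes it was 0.029%, 7.2% and 40%. Of 26 p53 targets that were tested and had a window, 10 held a half-site and 1, Cdkn1a, held an element. A match describes letters and is no measure of binding in these cells.

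**Figure D4:**
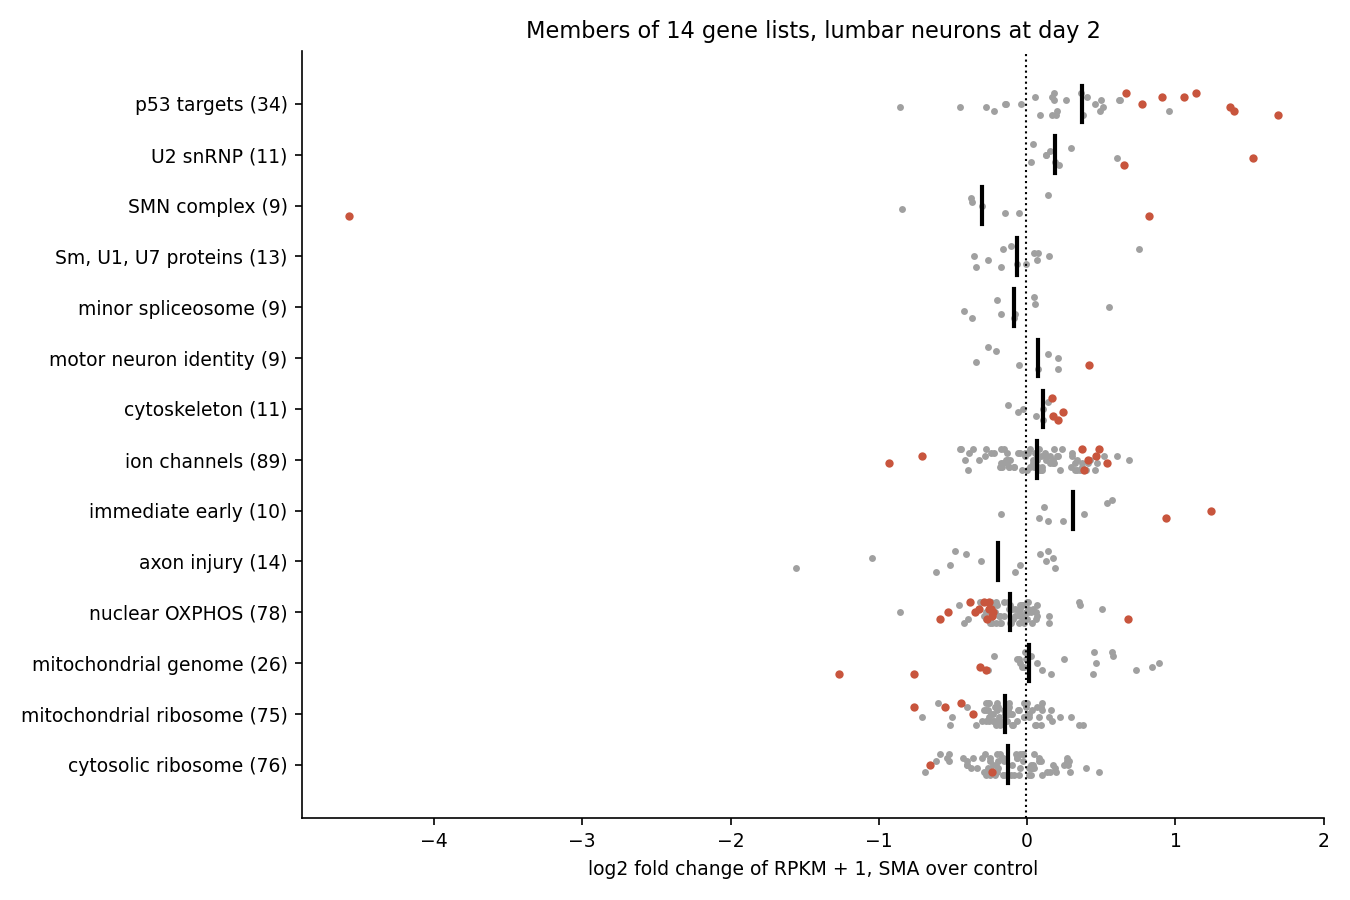
The x axis gives the log2 fold change of SMA over control for each tested member of the gene lists shown, with list medians and the median of all genes (-0.01). The p53 targets have a median of 0.37 and the nuclear genes of oxidative phosphorylation one of -0.12.

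Of 78 nuclear genes of oxidative phosphorylation, the chain of complexes that makes ATP, 61 had a log2 fold change below 0 and the median was -0.12. At an unadjusted p under 0.05, 12 were lower and 1 higher, where 2.96% and 2.75% of all genes were, and 0 were called by limma. Without SMA mouse 211, 7 were lower, where 2.1% of all genes were. When controls 240 and 244 were left out, 5 were lower, where 1.69% were. Ndufb10, a subunit of complex I, was 1376, 1517, 1326 and 1839.8 RPKM in controls and 739.7 at the lowest, 1022 at the median and 1193 at the highest in SMA mice. The groups did not overlap (log2 fold change -0.58, SE 0.14, limma, adjusted p = 0.295). Ndufb9, also of complex I, was 1094 ± 24.4 and 861 ± 58.1, without overlap, and Uqcrh of complex III was 2483 ± 373 and 1901 ± 279.7. The member on the higher side was Cox7a1, the muscle form of a complex IV subunit, at 15.5 ± 1.09 and 26.6 ± 8.22.

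Among genes of the mitochondrial genome, mt-Co1, the core subunit of complex IV, was 1579, 1058, 1216 and 1417 RPKM in controls and 697 at the lowest, 768 at the median and 866 at the highest in SMA mice. The groups did not overlap, and the log2 fold change was -0.76 (SE 0.15, limma, adjusted p = 0.0841). It passed when limma weighted samples by quality (adjusted p = 0.0118) and without control 28 (adjusted p = 0.0336). mt-Nd1, of complex I, was 11645 ± 1829 and 9343 ± 1402, and mt-Cytb, of complex III, was 9063 ± 196.7 and 7515 ± 689. With the transfer RNA mt-Tr, named after its values were seen, these were the 4 members at an unadjusted p under 0.05, all lower. Of all genes, 2.96% were lower at that level. Of the 26 genes tested in this list, 13 were below 0, and the median was 0.01. Most of the 26 are transfer or ribosomal RNAs. The protein-coding members not named above had log2 fold changes of -0.22 (mt-Nd5), -0.05 (mt-Nd4), -0.01 (mt-Nd6) and 0.07 (mt-Nd2). The whole list took 9.60% ± 2.70 of summed RPKM in controls and 10.3% ± 2.97 in SMA mice. That share was 11.1% and 12.6% in controls 20 and 28, and 7.34% and 7.32% in controls 240 and 244. Without controls 240 and 244, 9 of the 26 were lower at an unadjusted p under 0.05, where 1.69% of all genes were. The median was then -0.49. The log2 fold change of mt-Nd1 then went from -0.32 to -0.50. Nuclear copies of mitochondrial sequence can share reads with these genes.

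Among 75 proteins of the mitochondrial ribosome, 56 were below 0 with a median of -0.15, and 4 were lower and 0 higher at an unadjusted p under 0.05, where 2.96% and 2.75% of all genes were. Mrps12 was 209.4 ± 38.2 and 153.4 ± 24.4, Mrps17 was 133 ± 18.1 and 104.7 ± 23.6 and Mrps25 was 64.6 ± 40.9 and 33.7 ± 3.73. The Mrps25 mean of controls rests on control 240: values were 39.1, 45.5, 125.8 and 48.02, and without that mouse the log2 fold change went from -0.76 to -0.39. With controls 240 and 244 left out, 1 was lower and 1 higher, where 1.69% and 1.39% of all genes were. Among 76 proteins of the cytosolic ribosome, 50 were below 0 with a median of -0.13, and 2 were lower at that level, near the share of all genes (2.96%): Rplp1 (409 ± 50.3 and 347 ± 34.5) and Rps16 (10.9 ± 2.30 and 6.73 ± 2.22). Ribosomal protein genes have many near-identical pseudogenes, so these values are uncertain.

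Of 9 motor neuron identity genes, 1 had an unadjusted p under 0.05, where 5.71% of all genes did. This was Slc5a7, the choline transporter of cholinergic terminals, at 81.1 ± 31.004 and 105.1 ± 19.7 (log2 fold change 0.41, limma, adjusted p = 0.719). Its log2 fold change was 0.19 without controls 240 and 244, and 0.65 without control 28. Without controls 240 and 244, 0 members were higher at that level, where 1.39% of all genes were. Among transcription factors of motor neurons, Isl1 was 64.4 ± 37.9 RPKM in controls and 46.7 ± 16.97 in SMA mice, and Mnx1 was 7.62 ± 1.35 RPKM in controls and 6.30 ± 1.69 in SMA mice. Of 9 lumbar Hox genes, 0 had an unadjusted p under 0.05, against 5.71% of all genes. Of 11 cytoskeletal genes, 8 had a log2 fold change above 0, with a median of 0.11. At an unadjusted p under 0.05, 4 were higher and 0 lower, where 2.75% and 2.96% of all genes were. Without controls 240 and 244, 0 were higher at that level, where 1.39% of all genes were. Nefm, the medium neurofilament chain, was 3973, 4272, 4202 and 3806 RPKM in controls and 4421 at the lowest, 4684 at the median and 4933 at the highest in SMA mice. The groups did not overlap, with a ratio of means of 1.15 (log2 fold change 0.21, SE 0.07, limma, adjusted p = 0.654). The others were Tuba1a, an alpha tubulin (2131 ± 126.98 and 2518 ± 202.3), Stmn2, which acts on microtubules in growing axons (1310.3 ± 51.2 and 1484 ± 122.1), and Nefl, the light neurofilament chain, named after its values were seen (3911 ± 280.1 and 4396 ± 246.8). Without controls 240 and 244 the log2 fold change of Nefl went from 0.17 to 0.09.

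Mmp9, an enzyme of fast motor neurons, was 7.72, 10.3, 11.4 and 1.72 RPKM in controls and 4.09 at the lowest, 14.8 at the median and 32.6 at the highest in SMA mice, with overlap (log2 fold change 1.09, SE 0.40, limma, adjusted p = 0.690). Spp1, osteopontin, a marker of alpha motor neurons, was 27.9 ± 7.39 and 47.3 ± 12.7. These were the 2 of 13 subtype markers at an unadjusted p under 0.05, both higher, where 2.75% of all genes were. At that level 0 were higher without controls 240 and 244, where 1.39% of all genes were. The log2 fold change of Mmp9 was 0.60 without control 244, the lowest mouse, and 0.71 without both. Ret, a receptor for neurotrophic factors of the GDNF family, was 106.2, 125.9, 126.01 and 122.5 in controls and 127.7 to 184.9 in SMA mice, without overlap (log2 fold change 0.31, limma, adjusted p = 0.7097).

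Of 89 ion channel genes, 6 were higher and 2 lower at an unadjusted p under 0.05, where 2.75% and 2.96% of all genes were. The median was 0.07. Without controls 240 and 244, 0 were higher and 2 lower, where 1.39% and 1.69% of all genes were. Kcnd2, of the A-type potassium current, was 25.8 to 33.2 RPKM in controls and 33.5 to 44.4 in SMA mice, without overlap (log2 fold change 0.38, limma, adjusted p = 0.724). Kcna1, a potassium channel of the axon, was 29.97 ± 7.58 and 38.5 ± 6.10, and Scn4b, a sodium channel subunit, was 5.44 ± 1.46 and 8.47 ± 2.55. The log2 fold change of Kcna1 went from 0.37 to 0.18 without controls 240 and 244. The 2 lower members were potassium channel subunits at low levels: Kcne3 was 1.58 ± 1.74 RPKM in controls and 0.181 ± 0.480 in SMA mice, and Kcns1 was 1.59 ± 1.59 RPKM in controls and 0.404 ± 0.336 in SMA mice. Their log2 fold changes went from -0.93 to -1.78 and from -0.71 to -1.22 without these controls, and that of Kcns1 to -0.34 without control 28. Of 10 immediate early genes, which neuronal activity induces, 9 were above 0 and the median was 0.31. Fos was 11.4, 2.80, 2.51 and 8.93 in controls and 8.48 to 19.7 in SMA mice, with overlap (limma, adjusted p = 0.647), and Dusp1 was 4.76 ± 2.06 and 9.94 ± 3.40.

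Of 16 genes of the unfolded protein and integrated stress responses, 2 were higher at an unadjusted p under 0.05, Sdf2l1 (39.5 ± 4.37 and 52.7 ± 11.1) and Ddit3, the factor CHOP (32.4 ± 11.8 and 43.8 ± 9.01), where 2.75% of all genes were. With controls 240 and 244 left out, 1 was higher, where 1.39% of all genes were. The log2 fold change of Ddit3 then went from 0.46 to 0.82. Of 10 heat shock genes, 1 was lower, where 2.96% of all genes were, Hspa8 (20.8 ± 9.19 and 11.2 ± 3.58). When controls 240 and 244 were left out, 0 were lower, where 1.69% of all genes were. The log2 fold change of Hspa8 then went from -0.79 to -0.39. With all mice, axon injury (14 tested), vesicle release (21 tested) and cholesterol synthesis (13 tested) had 0 members at that level, against 5.71% of all genes. Of 12 modifiers of SMA known from other work, 2 were higher, where 2.75% of all genes were, Stmn2 and Chp1 (12.8 ± 3.07 and 16.2 ± 2.42). Without controls 240 and 244, 0 were higher and 1 lower, where 1.39% and 1.69% of all genes were. The log2 fold change of Chp1 then went from 0.34 to 0.19 (0.16 without control 240 alone). Pls3, the protective modifier plastin 3, was 14.5 and 17.3 RPKM.

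The other genes named by size had an unadjusted p under 0.01, no overlap and a mean of at least 10 RPKM in the higher group, and 0 of them were called. On the higher side, Timeless, a protein of the replication fork, was 7.10 ± 3.62 and 25.6 ± 16.9, and Hist1h1c, a linker histone, was 9.39 ± 3.08 and 18.9 ± 5.66. Cpt1a, which brings fatty acids into mitochondria, was 8.62 ± 1.28 and 13.5 ± 2.42. Of the chaperones, Hspa4 was 31.8 ± 3.96 RPKM in controls and 42.8 ± 6.59 in SMA mice, and Hspa9 was 111.8 ± 11.6 RPKM in controls and 144 ± 10.8 in SMA mice. On the lower side, Iscu, the scaffold on which iron-sulfur clusters are built, was 24.2, 32.01, 26.4 and 101.6 in controls and 9.72 to 22.3 in SMA mice, and control 244 lay far above the other controls. Srsf2, a splicing factor, was 57.2 ± 15.3 and 31.1 ± 7.51. Thoc6, of an mRNA export complex, was 18.3, 17.8, 40.9 and 33.001 in controls and 9.05 to 17.5 in SMA mice, and its log2 fold change went from -0.89 to -0.40 without controls 240 and 244. That of Iscu went from -1.28 to -0.82 without control 244, and that of Timeless from 1.64 to 1.06 without controls 240 and 244. Trim72, a protein of membrane repair in muscle, named after its values were seen, was 0.279 to 1.28 in controls and 1.78 to 4.68 in SMA mice (log2 fold change 1.196, limma, adjusted p = 0.281). It passed when samples were weighted (adjusted p = 0.0482).

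The genotype difference was then set against that of lumbar neurons at days 5 and 10, from other mice: 5 controls and 5 SMA mice at day 5, and 4 and 5 at day 10. By limma, 0 of 16382 genes (0%) had a difference that changed from day 2 to either age at an adjusted p under 0.05. At an unadjusted p under 0.05 there were 1058 genes for day 5 (6.46%) and 1378 for day 10 (8.41%). Of the 936 genes with an unadjusted p under 0.05 at day 2, 57.2% had the same sign at day 5, against 50.5% of all genes. At day 10 it was 48.4% against 49.5%.

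Snrpa1 was 40.8 ± 13.1 and 106.7 ± 33.1 RPKM at day 5 and 41.9 ± 4.65 and 127.1 ± 17.7 at day 10. Its log2 fold change differed from day 2 by -0.14 at day 5 (SE 0.27) and 0.05 at day 10 (SE 0.28), both within their error. Cdkn1a was 8.85 ± 3.76 and 108 ± 45.9 at day 5 and 6.90 ± 5.73 and 199.8 ± 56.9 at day 10, against 19.6 in controls at day 2, so the control mean was lower at the later ages. Its log2 fold change was larger by 3.16 at day 10 (SE 0.55, limma, adjusted p = 0.0584), and this was called without SMA mouse 206 (adjusted p = 0.0166) or 207 (adjusted p = 0.0288). Ccng1 was 19.95 ± 4.12 and 40.3 ± 8.59 at day 5 and 10.8 ± 2.42 and 38.5 ± 9.51 at day 10.

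mt-Co1 was 1552 ± 241.8 and 1540.1 ± 159.03 at day 5 and 888 ± 233.7 and 736 ± 155 at day 10, so the means of the genotypes were close at day 5 and SMA mice had the lower mean at each age. Its log2 fold change at day 5 differed from day 2 by 0.76 (limma, adjusted p = 0.705). Nefm was 5237 ± 355 and 4605 ± 481 at day 5 and 6713 ± 453 and 5457 ± 357 at day 10, below controls in mean where it was above at day 2. The difference from day 2 was -0.51 at day 10 (SE 0.10, limma, adjusted p = 0.0898). Mmp9 was 27.3 ± 13.6 and 15.7 ± 1.47 at day 5 and 62.5 ± 10.96 and 38.02 ± 11.5 at day 10, with a difference from day 2 of -1.85 at day 10 (SE 0.58, limma, adjusted p = 0.282). None of these age differences passed the correction in limma.

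**Figure D5:**
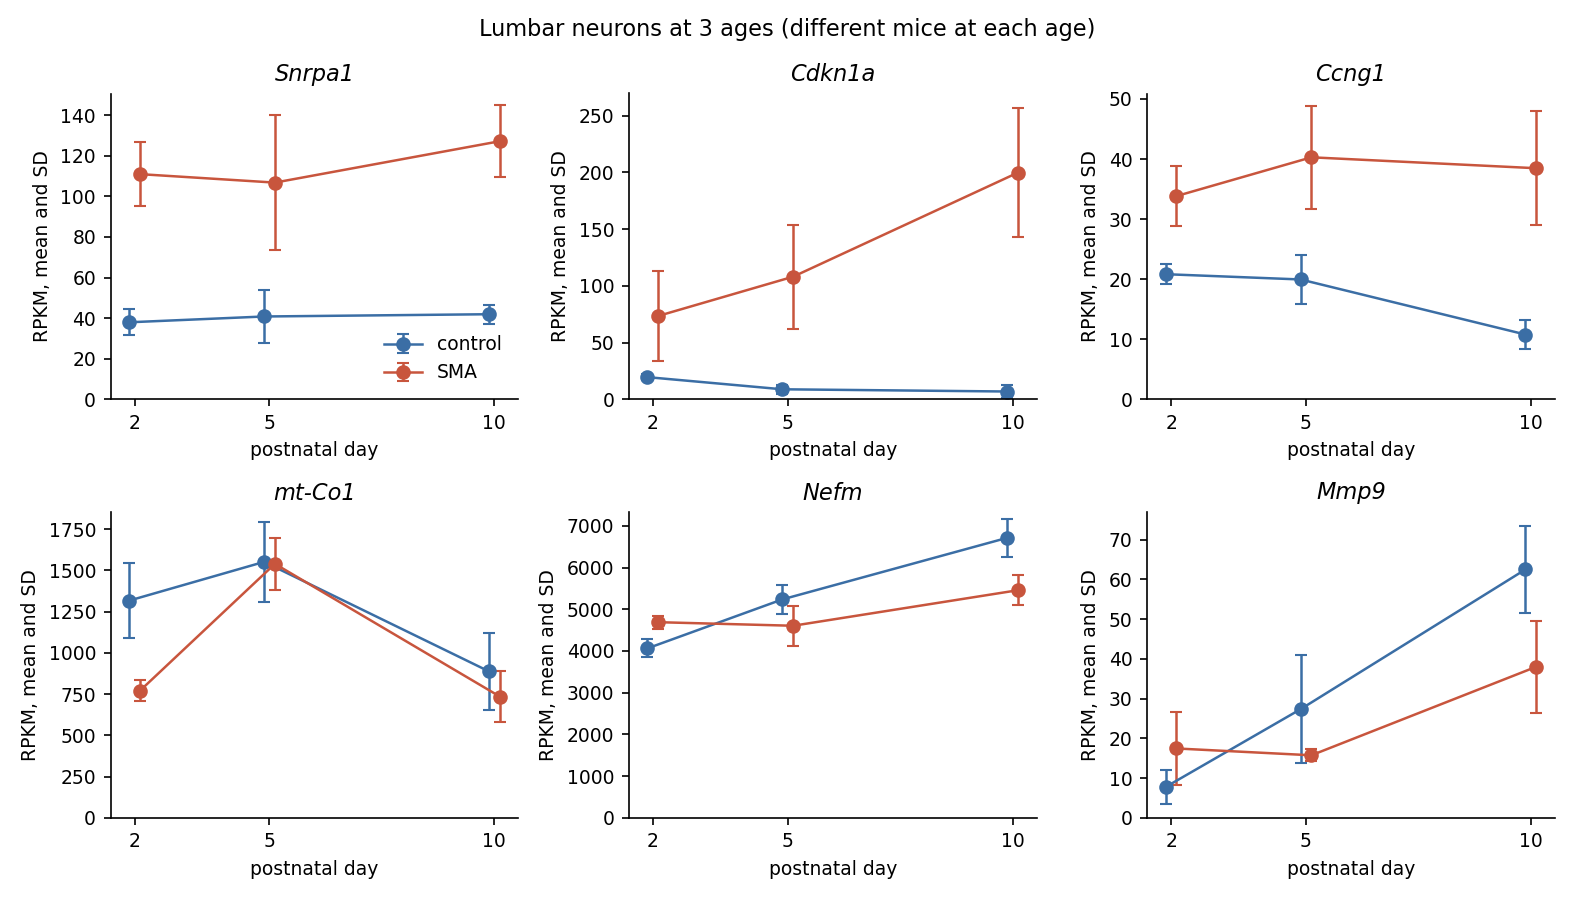
RPKM as mean and SD (y axis, from 0) of 6 genes in lumbar neurons at postnatal days 2, 5 and 10 (x axis), by genotype, with different mice at each age. Snrpa1 has a like gap at each age, and the Nefm mean of SMA mice lies above controls at day 2 and below them at days 5 and 10.

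Facial and hypoglossal motor neurons of the brainstem at day 2 came partly from the same mice, with 5 controls and 7 SMA mice for facial and 4 and 6 for hypoglossal neurons. By limma, the genotype difference of lumbar neurons differed from that of facial neurons for 0 of 16006 genes (0%), with 619 at an unadjusted p under 0.05 (3.87%). Against hypoglossal neurons it was 0 of 15884, with 937 (5.9%). Snrpa1 was 53.2 ± 9.34 and 123.6 ± 36.98 in facial and 43.3 ± 16.1 and 101.8 ± 32.4 in hypoglossal neurons. Its log2 fold change was larger in lumbar neurons by 0.37 (SE 0.27) and 0.27 (SE 0.35), and neither passed the test. Cdkn1a was 19.5 ± 16.5 and 69.1 ± 30.3 in facial and 27.4 ± 7.97 and 40.1 ± 14.5 in hypoglossal neurons. Trp53 was 14.7 ± 2.87 and 13.7 ± 2.97 in facial and 11.01 ± 3.22 and 8.83 ± 3.25 in hypoglossal neurons, where SMA mice had the lower mean. Its difference from lumbar neurons was 1.03 (SE 0.35, limma, adjusted p = 0.9995) and 1.24 (SE 0.42, adjusted p = 0.793).

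Markers of other cells were compared as sums over each list. Of 15 measures of depth, composition and marker lists, 0 differed between genotypes at an unadjusted p under 0.05 (exact permutation test over 330 assignments of mice, two-sided, smallest possible p = 0.00303, lowest adjusted p = 0.938). Hypothalamic peptides summed to 1.16 to 517 RPKM in controls and 2.65 to 13.5 in SMA mice (exact permutation test, p = 0.109). Only controls 240 and 244 held the high sums, so this test of means could not reach 0.05 for that measure. Oligodendrocyte markers summed to 36.9 to 68.8 RPKM in controls and 36.9 to 171.6 in SMA mice, with the myelin protein Mbp at 18.9 ± 9.75 and 22.1 ± 20.9 and Opalin at 0 in all 11 mice. Among 6 markers of oligodendrocyte precursors, whose sums were 8.06 to 18.7 and 5.40 to 28.1, 1 had an unadjusted p under 0.05, where 5.71% of all genes did. This was Bcas1, at 0.0978, 0.886, 2.34 and 1.96 in controls and 0.833 at the lowest, 5.85 at the median and 10.7 at the highest in SMA mice, with overlap (log2 fold change 1.38, limma, adjusted p = 0.606), and its unadjusted p was also under 0.05 without SMA mouse 211 and without controls 240 and 244. Microglial markers summed to 11.6 to 50.8 and 8.72 to 54.1. Astrocyte markers summed to 1458 to 1786 and 1606 to 1950, most of it Aldoc (1616 ± 142 and 1717 ± 104), so the sum mainly follows that gene. Of the 10 astrocyte markers tested, 3 had a log2 fold change above 0 and 7 below, with a median of -0.10. Markers of other spinal neurons summed to 2194 to 8803 and 366.5 to 8071, most of it Sst, with SMA mouse 206 the lowest. Of the 11 members tested, 10 had a log2 fold change below 0. The median was -0.42 (-0.35 without SMA mouse 211 and -0.58 without controls 240 and 244). In limma 0 had an unadjusted p under 0.05, where 5.71% of all genes did. The member above 0 was Penk, an opioid peptide precursor (89.5 ± 7.20 and 175.2 ± 85.2). Vascular markers summed to 12.95 to 29.8 and 11.3 to 31.9, fibroblast markers to 3.21 to 12.3 and 6.49 to 36.9, and blood markers to 21.8 to 138.6 and 5.45 to 338.9. Their part in the results above was not tested.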

How the data were processed

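The authors deposited a table of RPKM with 39410 rows and 168 libraries. The submitters' processing notes name STAR 2.4.1c, mm10 and hg19; the read counter and its use of strand are not given in the sources used here. Rows were matched by symbol to GENCODE M21 (GRCm38), which gave 35283 positions. RPKM of the 2 libraries of SMA mouse 206 were averaged. Depth was estimated from the RPKM step worth 1 read; 71.6% to 76.6% of low values of genes with 1 transcript lay within 0.02 of whole reads, too few for a count test.

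limma 3.58.1 (R 4.3.3; trend) was fitted to log2(RPKM + 1) of 30 lumbar mice in 6 groups, for genes of at least 1 RPKM in 4 mice; the fit was tested on simulated data. The brainstem comparisons used 4 groups each. Mouse numbers were taken to mark animals. Deviations of the same animal correlated by 0.00447 to 0.165 (lumbar and facial) and -0.0114 to 0.0921 (hypoglossal). Different animals ran from -0.159 to 0.132 and from -0.115 to 0.103, so single values overlap. The consensus correlation of the mouse block was 0.0766 and 0.0636, a weak pairing that the main fit left out. Members and lists were chosen with earlier results of these data known. A result that is withheld is not reported here. Named genes were Smn1, SMN2, called genes, the 10 of largest change in each direction (unadjusted p under 0.01, no overlap, 10 RPKM), up to 3 per list and direction by p, fixed markers and SMN complex genes. Entries without a row, such as Slc18a3, are not analysed here. Promoters are from RefSeq.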

Additional observations from a re-analysis of the deposited data

Results flagged for a closer look

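Of the groups of samples tested for a value far from the others, 9.94% held one, 18 in all, where chance gives about 1 in 20. That rate is a rough guide, because the groups are not independent. Hcrt of SMA mouse 211, for example, also makes up its sum of hypothalamic peptides. SMA mouse 211 accounted for 7: it was lowest for Ephx1 (1.24 RPKM), Gemin4 (0), Gemin5 (0.847), Uqcrh (1363) and genes above 0 (14687), and highest among SMA mice for Hcrt (13.47) and the sum of hypothalamic peptides (13.47). SMA mouse 206 had the lowest Isl1 (11.41) and Sst (140.4) and the highest sums of oligodendrocyte markers (171.6) and fibroblast markers (36.87). Its 2 libraries correlated by 0.905. SMA mouse 209 held the highest Kcne3 (1.269). Among controls, mouse 20 was lowest for Ret (106.2) and highest for Psrc1 (0.7284), and mouse 28 was lowest for Gemin2 (3.883). Control 240 was lowest for Cpt1a (6.705) and highest for the sum of oligodendrocyte precursor markers (18.68). Control 244 was lowest for Hist1h1c (4.771).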

How the results depend on the processing

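By limma, the count of genes called at day 2 was 2 as reported, 7 with no filter on low values, 4 with samples weighted by quality, 1 with the mice of lower library numbers and 1 with those of a narrower range of library numbers. In both last sets Snrpa1 was not called (log2 fold change 1.61, adjusted p = 0.0505, and 1.57, adjusted p = 0.210), and both hold fewer mice. Leaving out each mouse in turn gave 2 to 4. The highest count, 4, came without control 28, where mt-Co1 and Chchd2, named after its values were seen, were added. For the change in genotype difference the count was 0, and leaving out each mouse gave 0 to 0 for day 5, 0 to 1 for day 10, 0 to 1 against facial neurons (1 without SMA mouse 211) and 0 to 2 against hypoglossal neurons (2 without SMA mouse 55). With the mouse as a replicate block, the counts against facial and hypoglossal neurons were 0 and 0, with 696 and 1009 genes at an unadjusted p under 0.05. The settings without controls 240 and 244, and list counts without SMA mouse 211, were chosen after seeing the data. Depth of 3.80 to 7.56 M reads and 4 controls limit what could be detected.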
